A study of Mus musculus with 6 samples.

Results

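The genes described here are 10 mouse genes of selenium transport, selenium binding and selenoprotein function: Selenop, Selenbp1, Selenbp2, Selenof, Selenoh, Selenok, Selenom, Selenos, Selenot and Selenow. They were taken by name from a count table of 24190 genes after their difference between treated and control organoids had been seen, so every value of that difference is given for them as a description, without a test. All 10 passed the filter on low counts, as did 14692 genes in all. The study profiled RNA from MTO54, a mouse colorectal tumor organoid line from a primary tumor of a genetically engineered mouse, and all 6 samples share its genotype, labelled AKP. Organoids were dissociated, and single cells were plated in basement membrane extract in complete stem cell medium. At 2 days after seeding, 3 samples received Folfiri, given in the labels as the thymidylate synthase inhibitor 5FU at 50 μg/μl with the topoisomerase I inhibitor SN38 at 100 nM, and 3 Control samples received fresh medium, in both cases for 2 days. Another passage of the study gives a longer treatment, and the unit of the 5FU dose, printed as in the labels, may be an error. The comparison asks how chemotherapy changed the transcriptome of these tumor cells. A single line was used, so errors and p-values measure the spread between samples of that line. The study calls its replicates biological, and the labels do not say whether they were separate cultures.

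Selenoproteins carry selenocysteine, an amino acid in which selenium takes the place of sulfur, and most of them are enzymes of redox control. Selenocysteine is read from TGA, normally a stop codon, with the help of a structured element in the mRNA and a dedicated set of translation factors. Selenop is secreted, mainly by the liver, and delivers selenium to other tissues through receptors of the LDL receptor family. The selenium-binding proteins Selenbp1 and Selenbp2 hold selenium without selenocysteine; SELENBP1 is a methanethiol oxidase that is abundant in mature colon epithelium.

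The selenocysteine site of each of the 8 selenoproteins among the genes is shown because it separates them from the selenium-binding pair. Each line is read 5′ to 3′ from the GENCODE coding sequence (GRCm38), with the in-frame TGA in capitals and up to 15 bases after it.
Selenop: cttcaagccagcTGAtacttgtgtcttctg
Selenof: gaagtctgcggaTGAaaattggggaggttc
Selenoh: cattgtacgagcTGAcgcgtgtacggccgc
Selenok: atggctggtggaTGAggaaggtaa
Selenom: acctgtggaggaTGAcagttgaatcgccta
Selenos: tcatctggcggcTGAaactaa
Selenot: atttgtgtatccTGAgggtaccggcgggtg
Selenow: tattgtggagctTGAggctataagcccaag
Selenop had 10 in-frame TGA codons, and its first, at codon 59 of 380, is the site printed. The other 7 selenoproteins had 1 each. The TGA stood close to the amino end in Selenow, at codon 13 of 88, and next to the last codon in Selenos, at codon 189 of 190. Selenbp1 and Selenbp2 had 0 in-frame TGA codons among 472 codons each.

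Selenop, Selenbp1 and Selenbp2 stood far below the control samples after Folfiri, while the 7 housekeeping selenoproteins stayed within a 2-fold range of them. Selenbp1 and Selenbp2 were 46.2-fold and 46.9-fold lower, and Selenop was 7.68-fold lower. Among the 7 others the difference ran from a log2 fold change of -0.99 in Selenoh to 0.05 in Selenow, with a median of -0.20 beside 0.02 over all genes tested. Of the 10 genes, 6 passed an adjusted p of 0.05 in edgeR and all 6 were lower, where 79.1% of all genes tested passed in either direction and 38.8% passed as lower. In 7 of the 10 the Folfiri samples did not overlap the control samples, again all lower, where this held for 81.4% of all genes tested in either direction and for 39.9% as lower. Since the genes were chosen from this contrast, nothing is read from those counts.

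**Figure D1:**
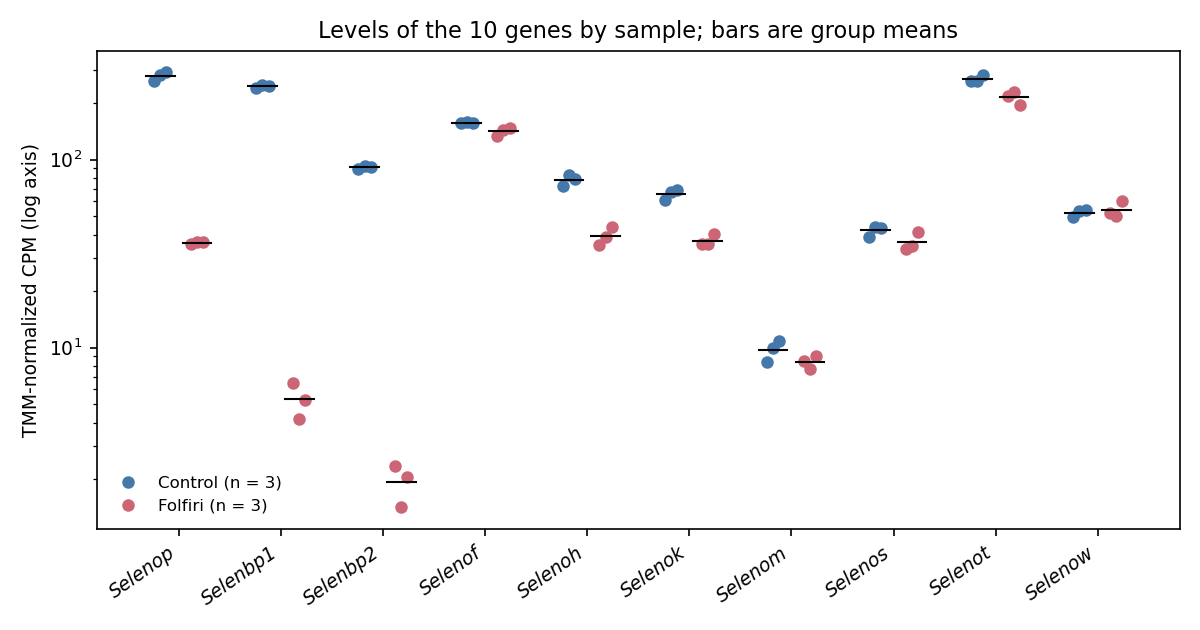
Levels of the 10 genes in each of the 6 samples, in TMM-normalized CPM on a log axis, with Control in blue, Folfiri in red and bars at the group means. Selenop, Selenbp1 and Selenbp2 are separated by wide gaps, and the 2 groups overlap in Selenom, Selenos and Selenow.

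Selenop, the selenium carrier, lies on chromosome 15 (GRCm38, chr15:3268547-3280508, plus strand). Its level was 262, 282 and 291 CPM in the control samples and 35.7, 36.5 and 36.5 CPM in the Folfiri samples, where CPM is the count scaled by TMM to a common library size. The 3 Folfiri samples were almost equal and the groups were far apart. The group means, 278 ± 14.5 and 36.2 ± 0.475 CPM (SD, n = 3), differed by -2.94 ± 0.07 (SE) on the log2 scale. By that value Selenop stood at place 232 from the lowest among the 14692 genes tested. The end of Selenop lies over Ccdc152 on the opposite strand for 439 bases. The 13.5% of its 50-base transcript windows found in that gene, read on the other strand, are this same stretch. How reads over it were counted is not given in the sources used here. Ccdc152 had 0 to 5 counts per sample against 1064 to 7287 counts for Selenop.

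The selenium-binding pair lies on chromosome 3, with Selenbp2 at chr3:94693556-94704413 and Selenbp1 at chr3:94933056-94944758, both on the plus strand of GRCm38. Selenbp1 was at 240, 249 and 247 CPM in the control samples and at 6.51, 4.16 and 5.25 CPM in the Folfiri samples. Selenbp2, its close copy in the mouse, was at 88.9, 93.1 and 91.8 CPM in the control samples and at 2.35, 1.42 and 2.06 CPM in the Folfiri samples. No Folfiri sample came near a control sample in either gene. The log2 fold changes were -5.53 ± 0.13 and -5.55 ± 0.14 (SE, n = 3 each), places 6 and 4 from the lowest of all genes tested. Without any single sample the log2 fold change ran from -5.70 to -5.38 in Selenbp1 and from -5.70 to -5.36 in Selenbp2.

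How far the pair can be told apart depends on sequence. Their coding sequences of 1419 bases were identical at 1401 positions (98.7%), differed at 18 and shared a longest identical run of 193 bases. The stretch of 60 coding bases with most differences, bases 390 to 449 counted from the A of the start codon, is shown to give the scale, with the 4 differing positions in capitals.
Selenbp1: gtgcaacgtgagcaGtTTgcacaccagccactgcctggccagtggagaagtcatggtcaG
Selenbp2: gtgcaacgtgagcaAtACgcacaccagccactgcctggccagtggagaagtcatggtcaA
Exact matches of windows over all annotated transcripts are another measure and are not comparable with identity per base. Of 50-base windows, 46.3% of those of Selenbp1 occurred in Selenbp2 and 43.9% of those of Selenbp2 in Selenbp1. With 100-base windows the shares were 18.9% and 17.4%. A read from a shared window cannot be assigned to either gene by sequence, and the treatment of such reads is not given in the sources used here, so the level of each paralog is uncertain. With the counts of both genes summed the log2 fold change was -5.54.

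Selenbp1 took 73.0%, 72.8% and 72.9% of the counts on both paralogs in the control samples. In the Folfiri samples it took 73.5%, 74.6% and 71.8%, with exact 95% binomial intervals of 67.7 to 78.7, 67.4 to 80.9 and 65.6 to 77.4. Each of these intervals held the 3 control shares. The intervals cover counting error only and are wide after treatment because 44 to 194 counts per gene and sample remained. If shared reads were split between the paralogs, the split itself would enter this share, and its part in the value was not tested.

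**Figure D2:**
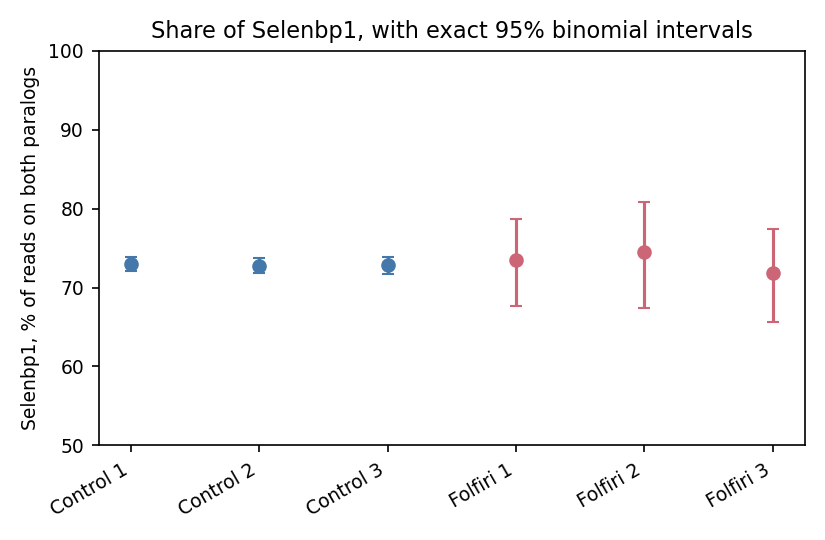
Share of Selenbp1 among the counts on Selenbp1 and Selenbp2 in each sample, in percent, with exact 95% binomial intervals and an axis from 50 to 100. All 6 shares lie between 71.8% and 74.6%.

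The 2 paralogs are 228.642 kb apart, and the genes around them did not share their values. Of 4 tested genes between them, 3 rose after Folfiri and 0 fell. Over all genes tested, 79.1% passed in either direction and 38.8% passed as lower, so nothing is read from this count. Log2 fold changes of the 4 genes ran from 0.08 in the proteasome subunit gene Psmb4 to 1.12 in Cgn, which encodes the tight junction protein cingulin. Cgn went from 101 ± 6.99 to 220 ± 7.03 CPM (SD, n = 3 each, edgeR adjusted p = 2.56e-07). Of the 9 tested genes that start within 100 kb of either paralog, the lowest was Rfx5, a regulator of MHC class II genes, at -0.82. Zfp687 came next at -0.70, and Cgn was the highest.

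The promoters of the pair are shown side by side because the genes are close copies. Their part in the fold changes was not tested, and shared reads leave the level of each paralog uncertain. RefSeq (GRCm38.p6) holds 1 promoter window of 300 bases for each, chr3:94932833-94933132 for Selenbp1 and chr3:94693323-94693622 for Selenbp2, both on the plus strand. Of 288 aligned bases 272 were identical (94.4%). The only capitals mark a match, read on either strand, to ACGTG, the core of the sites bound by hypoxia-inducible factors, which is also part of the CACGTG E-box.
Selenbp1: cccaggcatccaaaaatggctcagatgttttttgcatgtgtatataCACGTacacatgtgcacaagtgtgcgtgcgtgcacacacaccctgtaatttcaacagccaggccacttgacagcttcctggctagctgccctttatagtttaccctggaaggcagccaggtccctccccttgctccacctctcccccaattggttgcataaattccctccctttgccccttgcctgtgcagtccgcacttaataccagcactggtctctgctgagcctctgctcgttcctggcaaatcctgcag
Selenbp2: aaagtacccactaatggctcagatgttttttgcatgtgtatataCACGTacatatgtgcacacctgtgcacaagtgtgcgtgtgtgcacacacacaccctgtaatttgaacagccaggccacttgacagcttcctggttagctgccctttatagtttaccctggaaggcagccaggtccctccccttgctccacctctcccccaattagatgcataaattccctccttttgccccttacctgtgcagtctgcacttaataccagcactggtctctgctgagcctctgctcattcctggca
The match began 204 bases before the RefSeq start of Selenbp1 and 206 bases before that of Selenbp2, starts that the windows were built on and that differ from the GENCODE starts given above. ACGTG occurred in 19.6% of the 32851 mouse promoters of this length. Among the other genes it occurred in the windows of Selenoh, Selenom and Selenos, so matches stood in genes with large and with small differences. A match is a string of letters and not a bound site.

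For Selenop RefSeq holds 3 overlapping promoter windows, and the third, chr15:3270727-3271026 on the plus strand, is shown because it carries in capitals the only match to GTAAACA, the FOXO site, among the windows of the 10 genes.
Selenop: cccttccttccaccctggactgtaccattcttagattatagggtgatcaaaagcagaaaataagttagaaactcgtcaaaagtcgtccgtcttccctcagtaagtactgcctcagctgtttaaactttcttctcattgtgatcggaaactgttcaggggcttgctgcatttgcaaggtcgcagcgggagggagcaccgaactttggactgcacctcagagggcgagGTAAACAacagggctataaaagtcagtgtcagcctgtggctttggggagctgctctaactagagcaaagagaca
The match began 24 bases before the RefSeq start of that window, which lies downstream of the GENCODE start of Selenop given above. GTAAACA occurred in 3.65% of all promoters. CAAAGTC, a core of the HNF4 site found in 4.44% of promoters, did not occur in the windows of Selenop, Selenbp1 or Selenbp2.

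Among factors known from liver and other tissues to act on Selenop, 3 of 4 fell after Folfiri and 1 rose, where 79.1% of all genes tested passed and 38.8% passed as lower. Foxo3, a FOXO factor, went from 161 ± 1.66 to 52.1 ± 3.72 CPM (log2 fold change -1.63, edgeR adjusted p = 2.16e-08), lower in 3 of 3 Folfiri samples. Hnf4a, a nuclear receptor of liver and gut epithelium, went from 12.5 ± 2.24 to 2.09 ± 0.299 CPM (-2.59, adjusted p = 2.83e-07). Foxo1 fell by 0.43 on the log2 scale, a call that was lost when only total counts were used for scaling. The coactivator gene Ppargc1a rose by 1.16 from a low level, 0.226 ± 0.0405 CPM. Its adjusted p was 0.0100 in edgeR and 0.0784 with the DESeq2 Wald test, and it did not enter a fit restricted to genes at 1 CPM. The part of these genes in the level of Selenop was not tested.

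Of the receptors that take up Selenop, Lrp8 entered the test and Lrp2 did not. Lrp8, the receptor of testis and brain, was at 65.2, 58.9 and 55.7 CPM in the control samples and at 19.8, 20.1 and 18.9 CPM after Folfiri. The groups did not overlap, and the log2 fold change was -1.62 ± 0.09 (SE, edgeR adjusted p = 5.47e-08). Lrp2, the kidney receptor megalin, had 0 to 7 counts per sample. Without a filter on low counts it passed as higher (edgeR adjusted p = 0.0150), from 0 to 1 counts in the control samples and 3 to 7 after Folfiri.

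The housekeeping selenoproteins are described by where they act. Selenot, a thioredoxin-like oxidoreductase of the endoplasmic reticulum, was at 264, 261 and 281 CPM in the control samples and at 218, 229 and 196 CPM in the Folfiri samples. The groups did not overlap and differed by -0.32 ± 0.08 on the log2 scale. Selenok, an endoplasmic reticulum membrane protein that assists protein palmitoylation, was at 60.9, 67.4 and 69.3 CPM in the control samples and at 35.4, 35.6 and 40.0 CPM after Folfiri, a log2 fold change of -0.83 ± 0.08. These groups were also apart. Of the 50-base windows of Selenok, 12.7% occurred in 5 other genes, mostly in the noncoding gene Gm48228, which was not analysed here. Its pseudogene Selenok-ps1 had 27 to 42 counts per sample, against 1057 to 1691 for Selenok.

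Selenof, a partner of the glycoprotein folding sensor UGGT, was at 157 to 159 CPM in the control samples and 134 to 146 CPM in the Folfiri samples. Selenom, a thioredoxin-like protein of the same compartment, ranged from 8.43 to 10.8 CPM in the control samples and from 7.71 to 9.04 CPM after Folfiri. Selenos, which recruits the ATPase VCP to the membrane for the removal of misfolded proteins, ranged from 38.7 to 44.1 and from 33.6 to 41.2 CPM. Groups of Selenom and Selenos overlapped, and those of Selenof did not. The log2 fold changes of the 3 genes were -0.16 ± 0.07 in Selenof, -0.20 ± 0.13 in Selenom and -0.20 ± 0.10 in Selenos.

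Outside the endoplasmic reticulum the 2 small redox proteins differed from each other. Selenoh, a nuclear and nucleolar protein, was at 72.7, 82.7 and 78.9 CPM in the control samples and at 35.3, 39.0 and 44.0 CPM in the Folfiri samples, with a log2 fold change of -0.99 ± 0.09. Selenow, a cytosolic protein abundant in muscle, was at 49.3, 53.3 and 54.2 CPM in the control samples and at 52.0, 50.0 and 60.3 CPM after Folfiri. The Selenow groups overlapped, and its log2 fold change was 0.05 ± 0.09, with a 95% interval from -0.15 to 0.25. Both genes belong to the selenoproteins known to fall early when selenium is short, together with Gpx1 and Msrb1, which had log2 fold changes of 0.01 and -0.53.

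The scaling sets the sign of the small differences. TMM factors were 0.880 to 0.966 in the control samples and 1.10 to 1.11 in the Folfiri samples. With total counts alone, the median log2 fold change of all genes moved from 0.02 to 0.30. Selenof, Selenom and Selenos then had positive values (0.12, 0.08 and 0.08), Selenow was at 0.33 and Selenot at -0.05. Relative to the median of all genes, the median of the 7 genes was -0.22 under both scalings, -0.34 without Control replicate 1 and -0.50 without a filter on low counts. Selenop, Selenbp1 and Selenbp2 were at -2.66, -5.25 and -5.27 with total counts alone.

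**Figure D3:**
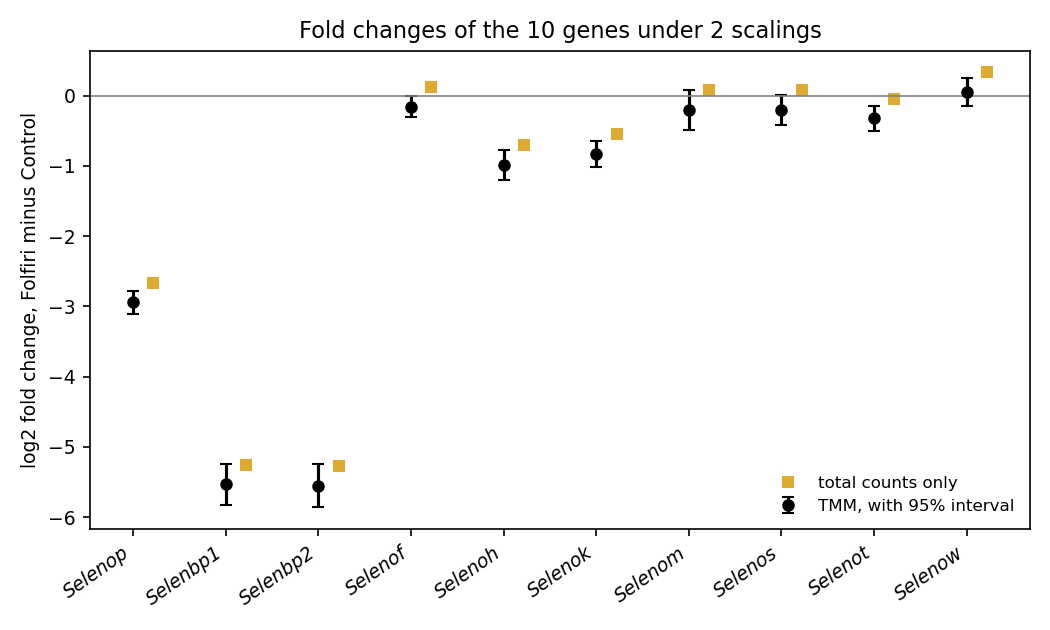
Log2 fold change (Folfiri minus Control) of each of the 10 genes, with TMM scaling as black points with 95% intervals from edgeR and with total counts alone as squares. Selenbp1, Selenbp2 and Selenop lie below -2.6 under both scalings, and the squares of Selenof, Selenom and Selenos lie above 0.

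Control replicate 1 stood apart from the others in its group, with a chi-square per degree of freedom of 23.7 and 22.4 against the other controls, which differed from each other by 3.84. Folfiri replicate 3 also stood apart, at 12.3 and 11.9 against 3.55 between the other Folfiri samples. Without Control replicate 1 the median log2 fold change of the 7 housekeeping selenoproteins was -0.30, and without Folfiri replicate 3 it was -0.26. Selenoh ranged from -1.07 to -0.91 and Selenok from -0.89 to -0.80 over the fits without single samples, so their differences did not rest on either sample. Selenow ranged from -0.03, without Folfiri replicate 3, to 0.11.

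Levels can be compared between genes only per length, here as CPM per kb of all annotated exons, and the order depends on that length. In the control samples Selenbp1 was highest at 108 ± 2.03 CPM per kb (SD, n = 3), followed by Selenop at 97.9 ± 5.11 and Selenot at 78.1 ± 3.16. Selenow (71.0 ± 3.57) and Selenoh (69.1 ± 4.44) came next with overlapping samples, and Selenbp2 (40.2 ± 0.956), Selenok (34.8 ± 2.34), Selenos (28.5 ± 2.01), Selenof (27.1 ± 0.185) and Selenom (6.56 ± 0.810) followed, with overlap between Selenos and Selenof. After Folfiri the order began with Selenow at 73.5 ± 7.45 CPM per kb, Selenot at 62.4 ± 4.76 and Selenoh at 34.9 ± 3.85. Selenos and Selenof, at 24.8 ± 2.77 and 24.3 ± 1.16, still overlapped, and Selenok was at 19.6 ± 1.37. Selenop, at 12.7 ± 0.167, was seventh, before Selenom at 5.67 ± 0.449, while Selenbp1 (2.33 ± 0.516) and Selenbp2 (0.856 ± 0.209) closed the order. With the length of the coding transcript instead, a choice made after seeing the data, Selenoh came first in the control samples at 157 ± 10.1 CPM per kb, before Selenbp1 at 143 ± 2.70, Selenop at 138 ± 7.21 and Selenof at 104 ± 0.710. Control samples of Selenbp1 and Selenop overlapped in this order. After Folfiri the order by that length began with Selenof at 93.4 ± 4.46, Selenoh at 79.0 ± 8.73 and Selenow at 73.5 ± 7.45, with overlap between Selenoh and Selenow. With either length Selenop came at place 7 after Folfiri, and Selenbp1 and Selenbp2 came last.

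Since Selenop mRNA carries 10 selenocysteine codons, it weighs more in a count of codons than in a count of transcripts. Over the 23 mouse selenoproteins in the table, Selenop made up 10.3% ± 0.204 of the summed CPM per kb in the control samples and 1.81% ± 0.0889 after Folfiri (SD, n = 3). Weighted by the number of selenocysteine codons, its share was 53.5% ± 0.548 and 15.6% ± 0.660. The sum over all 23 genes so weighted was 1829 ± 92.9 in the control samples and 820 ± 41.8 in the Folfiri samples. Without Selenop the summed CPM per kb was 850 ± 44.1 and 693 ± 40.8. With the length of the coding transcript in place of the exon length, a choice made after seeing the data, the codon share of Selenop was 47.0% ± 0.627 and 13.0% ± 0.551. These are sums of mRNA levels and say nothing of how often a codon was read.

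**Figure D4:**
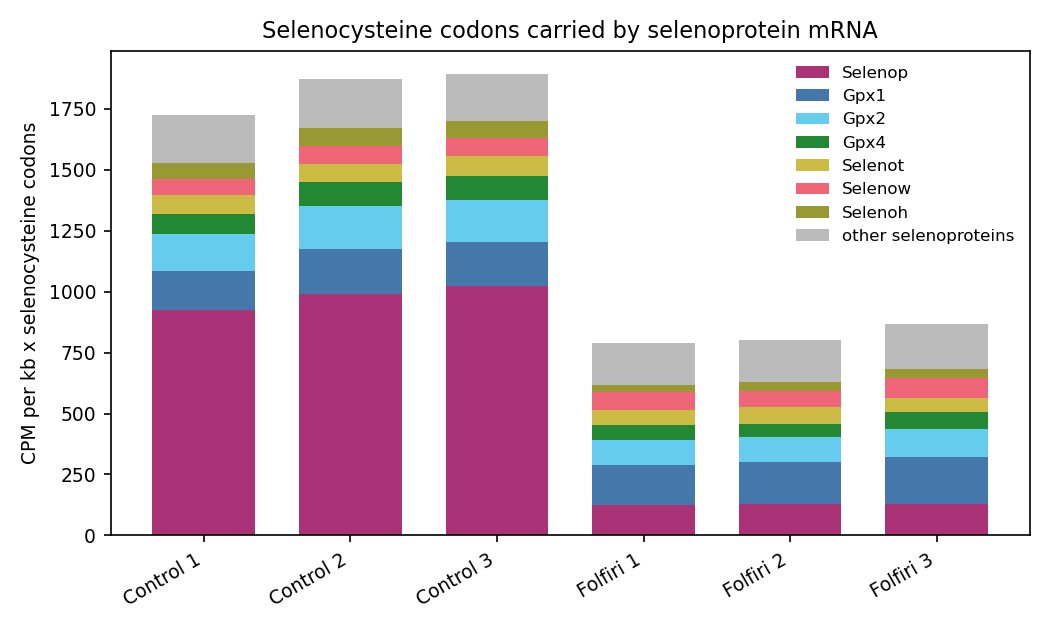
Selenocysteine codons carried by selenoprotein mRNA in each sample, as CPM per kb times the number of selenocysteine codons, stacked by gene from 0. Selenop fills 53.0% to 54.0% of the control columns and 14.8% to 16.0% of the Folfiri columns.

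Of the 16 other selenoproteins of the mouse, 11 could be tested, and 6 fell, 3 rose and 2 did not pass (edgeR, adjusted p under 0.05 over all genes tested), with a median log2 fold change of -0.53. This count and those of the lists that follow stand beside 79.1% of all genes tested that passed and 38.8% that passed as lower, and nothing particular to a list is read from them. The mitochondrial AMPylation enzyme gene Selenoo fell most, from 22.8 ± 1.32 to 6.43 ± 0.876 CPM (log2 fold change -1.82, adjusted p = 2.14e-07). The glutathione peroxidases differed: Gpx2, the form of gut epithelium, fell by 0.64 and Gpx4, which reduces lipid peroxides, fell by 0.60, while Gpx1, the widespread cytosolic form, was at 253 ± 15.6 and 254 ± 22.6 CPM (log2 fold change 0.01, adjusted p = 0.939). The thioredoxin reductases went in both directions, since the cytosolic Txnrd1 rose by 0.48 and the mitochondrial Txnrd2 and the third family member Txnrd3 fell by 1.31 and 0.80. Sephs2, which makes the selenium donor for selenocysteine, rose by 0.69, and Selenoi, an enzyme of phospholipid synthesis, rose by 0.31. With total counts alone the list split into 5 higher and 5 lower. Txnrd2, Sephs2 and Selenoo lie over genes on the opposite strand, and strand-specific counting is not stated. Their values may therefore include reads of those genes or miss reads from the overlap. Gpx3, Dio1, Dio2 and Selenov were too low to test, and Dio3 was not analysed here.

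Relatives of selenoproteins without selenocysteine were few. Of 4 tested, Gpx8, a peroxidase of the endoplasmic reticulum, rose from 1.54 ± 0.221 to 10.3 ± 0.953 CPM (log2 fold change 2.72, edgeR adjusted p = 9.54e-08). Sephs1, a relative of Sephs2, rose by 0.46, and Msrb2 and Msrb3, methionine sulfoxide reductases, did not pass.

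The genes that make and insert selenocysteine were tested in full, and 5 of 11 rose, 3 fell and 3 did not pass, where 79.1% of all genes passed. Alkbh8, which modifies the anticodon of the selenocysteine tRNA, rose from 15.7 ± 0.721 to 52.5 ± 4.04 CPM (log2 fold change 1.73, edgeR adjusted p = 4.65e-08). Scly, which recovers selenium from selenocysteine, rose by 1.12, Secisbp2, which binds the insertion element of the mRNA, by 0.75, and Sepsecs, which completes selenocysteine on its tRNA, by 0.67. Eefsec, the elongation factor for that tRNA, fell from 18.4 ± 1.92 to 6.59 ± 0.0997 CPM (log2 fold change -1.48, adjusted p = 5.85e-07). The ribosomal protein gene Rpl30 fell by 0.72 and the seryl-tRNA synthetase gene Sars by 0.48. Pstk, the kinase of the pathway, passed at 0.32 and overlaps Ikzf5 on the opposite strand for 4652 bases. Scly and Eefsec also overlap genes on the opposite strand, and Rpl30 overlaps D730044K07Rik on the opposite strand for 616 bases and Gm24523 on the same strand for 132 bases. The counts were 7 higher and 3 lower with total counts alone, and 4 higher without Control replicate 2 or without Folfiri replicate 3.

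The list of partners of the selenoproteins of the endoplasmic reticulum held 10 genes. Of these, 5 rose, 4 fell and 1 did not pass, where 79.1% of all genes passed, and with total counts alone 6 rose and 1 fell. Uggt1, the folding sensor bound by Selenof, rose by 0.61 (edgeR adjusted p = 9.85e-06). Sel1l, a scaffold of the machinery that removes misfolded proteins, fell by 0.60 (adjusted p = 1.36e-05), and the channel genes Derl1 and Derl2 fell by 0.40 and 0.44. Vcp, the ATPase that Selenos recruits, fell by 0.22, but was at 0.06 with total counts alone, where Derl1 and Derl2 no longer passed either (-0.12 and -0.16). Of the 10 genes, 3 passed as higher without Control replicate 3, without Folfiri replicate 1 or without Folfiri replicate 2, and also with the DESeq2 Wald test. Without Folfiri replicate 2 the number lower was 3.

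Methanethiol and sulfide handling is the pathway around the Selenbp1 enzyme. Of its 7 genes, 5 fell and 2 rose, with a median log2 fold change of -1.28, where 79.1% of all genes tested passed, 38.8% passed as lower and the median was 0.02. The list was drawn up with results of these data known. Cbs, which makes cystathionine and hydrogen sulfide, went from 21.3 ± 0.688 to 1.93 ± 0.269 CPM (log2 fold change -3.45, edgeR adjusted p = 6.72e-09). Mpst and Cth, the other sulfide-producing enzymes, fell by 2.29 and 1.97. Of the mitochondrial enzymes that oxidize sulfide, Ethe1 fell by 1.28 and Sqor by 0.88, whereas Tst rose by 0.41 and the sulfite oxidase gene Suox by 1.88. The counts of 5 lower and 2 higher were the same in every alternative run.

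**Figure D5:**
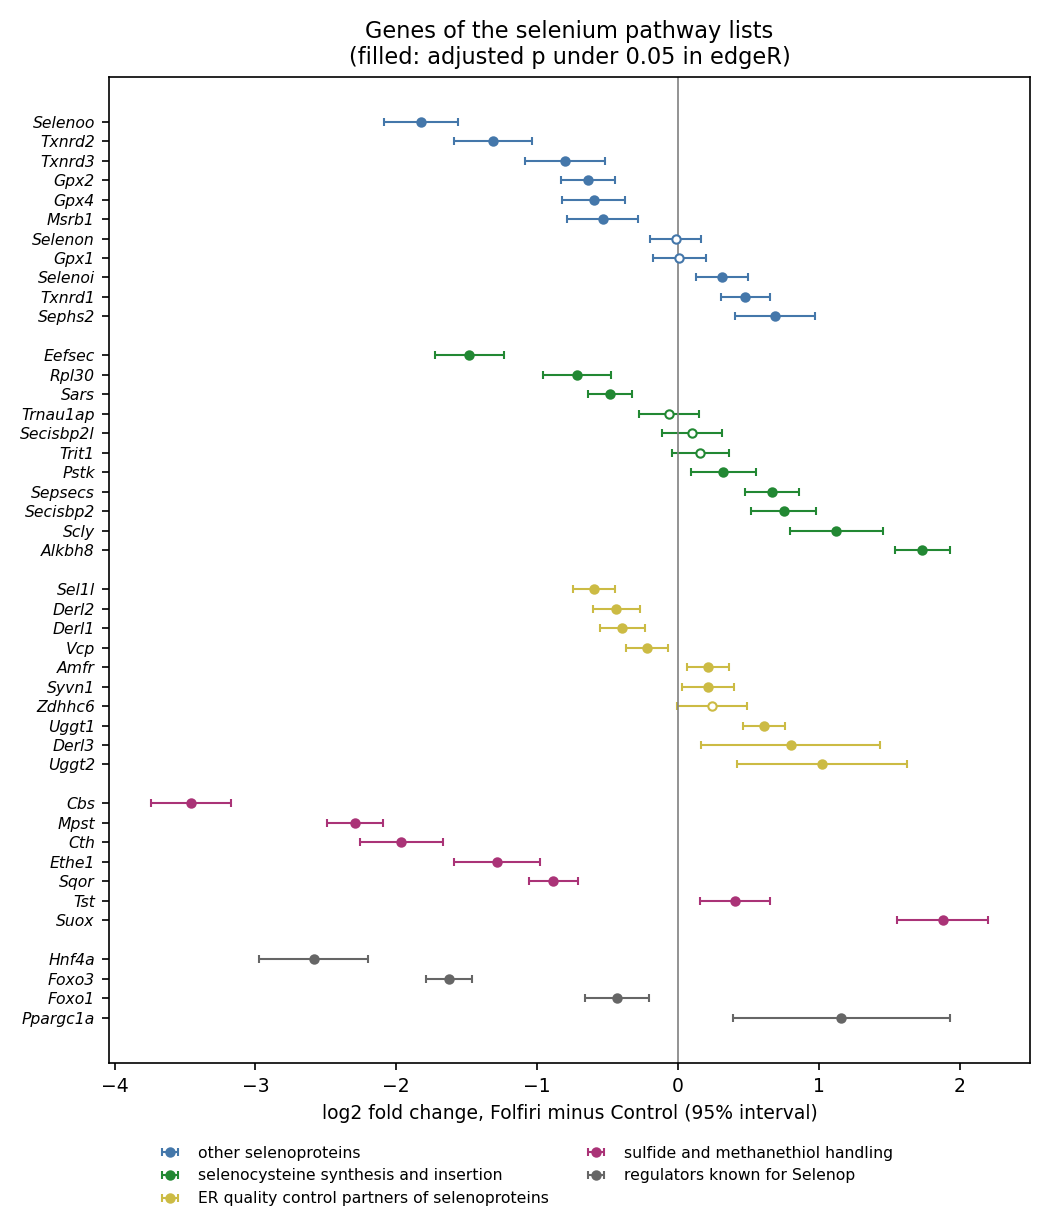
Log2 fold change (Folfiri minus Control) with 95% intervals for the tested genes of 5 selenium-related lists, filled where the edgeR adjusted p was under 0.05. Cbs lies lowest at -3.45, and the genes that make and insert selenocysteine lie on both sides of 0.

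Selenbp1 is known as a gene of mature colonocytes, and other genes of that cell state were listed beside it. Of 12 absorptive colonocyte genes 7 could be tested, and 3 rose, 1 fell and 3 did not pass, where 79.1% of all genes passed. The other 5 had 0 to 7 counts per sample. Krt20 and Car1, with control means of 1.44 ± 0.0716 and 2.79 ± 0.806 CPM, had log2 fold changes of -0.13 and 0.15 with 95% intervals from -0.58 to 0.32 and from -0.36 to 0.67. Car2, a carbonic anhydrase, rose from 120 ± 11.7 to 173 ± 4.50 CPM (edgeR adjusted p = 0.000147), while Aqp8 and Fabp2 rose from below 1 CPM. Cdhr5, a cadherin of the brush border, fell by 0.50 and no longer passed with total counts alone.

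The patterns most like those of Selenop, Selenbp1 and Selenbp2 were sought among 9961 tested genes, the 10 genes themselves left out, whose mean reached 10 CPM in a group, by the root mean square distance between log2 values over the 6 samples, each gene taken relative to its control mean. Closest to Selenop were Nsdhl at a distance of 0.062, Adm2 at 0.071 and Fads1 at 0.071. Outside the 10 genes, those closest to Selenbp1 and to Selenbp2 were in both cases Hist1h1c, Adm and Rnf186, at distances from 0.28 to 0.38. The paralogs themselves were 0.055 apart.

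The labelled cell type was checked by its markers. All 8 epithelial markers were above 1 CPM in both groups, and their sum was 5976 to 6945 CPM in the control samples and 4817 to 4991 CPM after Folfiri. Cdx2, a transcription factor of intestinal identity, fell by 1.53 on the log2 scale (edgeR adjusted p = 1.83e-08) and Epcam, an adhesion protein, by 0.94 (adjusted p = 7.17e-06). Cldn7 and Krt19 fell by 0.75 and 0.62, and Krt8 and Cdh1 passed at -0.27 and 0.21, values no larger than the shift between the scalings given above. Krt18 and Vil1 did not pass. Selenop is also a gene of hepatocytes and macrophages, and 4 hepatocyte genes summed to 2.24 to 2.83 CPM in the control samples and 1.33 to 1.51 CPM after Folfiri, mostly Alb. The 9 of 11 immune markers analysed summed to 23.1 to 27.1 CPM and 23.1 to 24.0 CPM, mostly Cd68, a lysosomal protein of many cells. In each group 2 immune markers had a mean of at least 1 CPM, Cd68 with Mrc1 in the control samples and Cd68 with Ptprc after Folfiri. Ptprc, a leukocyte marker, rose from 0.396 ± 0.0625 to 1.06 ± 0.103 CPM (edgeR adjusted p = 0.000479), and Adgre1, a macrophage marker, rose from 0.226 ± 0.0879 to 0.863 ± 0.0516 CPM (adjusted p = 0.000253). The part of these cells in the values above was not tested. C1qc was at or below 0.0303 CPM, and C1qa and C1qb were not analysed here. The 6 of 8 fibroblast markers analysed summed to 1.08 to 1.44 CPM and 2.03 to 2.45 CPM, with Dcn higher after Folfiri (means 0.0240 and 0.694 CPM, edgeR adjusted p = 5.89e-05), Pdgfra higher (0.397 and 1.14 CPM, adjusted p = 0.000460) and Col1a1 lower (0.842 and 0.301 CPM, adjusted p = 0.00149). Lum and Postn were not analysed here. In bulk RNA, fewer cells that express a gene and less of its RNA per cell cannot be told apart.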

How the data were processed

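Poly(A)-selected RNA of 6 organoid samples was sequenced, 3 Control and 3 Folfiri by the labels. The authors aligned the reads with STAR 2.5.2 to GRCm38 with GENCODE vM25, used Sambamba for sorting and Rsubread for counting, and deposited raw counts per gene. The strand setting and the treatment of reads with several positions are not given in the sources used here. Totals were 22103591 to 30098210 counts per sample, and counting intervals cover counting error only.

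Ensembl IDs were matched to symbols of GENCODE vM21, also on GRCm38, for 24124 of 24190 genes. edgeR 4.0.16 in R 4.3.3 was run on the deposited counts with its expression filter, TMM scaling, the quasi-likelihood test and Benjamini-Hochberg adjustment over 14692 genes at 0.05, after it was tested on simulated data. It called 11623 genes, 5926 higher and 5697 lower. The SE of a fold change is its size divided by the root of the F statistic. Levels are TMM-normalized CPM. The samples of a group were distinct libraries by a chi-square test of their counts.

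The 10 genes and all lists were chosen with earlier results of these data known. Named genes are the 10 members, all genes of the lists, the 3 genes nearest in pattern to Selenop and to each paralog, and neighbours of the pair. Coding sequences and shared windows came from GENCODE transcripts and promoters from RefSeq, in which all 10 genes matched. Alternatives were other scalings, filters, DESeq2 1.42.0, a replicate block, leaving out each sample and summing the paralogs.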

Additional observations from a re-analysis of the deposited data

How the results depend on the processing

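The number of genes called was 11623 and ran from 10630 to 12742 over the alternatives. With total counts alone 63.3% of the calls were higher, against 51.0% with TMM. No gene of the 10 turned its direction except Selenof, Selenom and Selenos with total counts alone, and Selenow, at 0.05, without Folfiri replicate 3 (-0.03). These differences lie near 0. The median log2 fold change of the 7 housekeeping selenoproteins, -0.20, was 0.075 with total counts alone, where the median of all genes moved by a like amount, and ran from -0.30 to -0.16 without single samples, lowest without Control replicate 1, whose part was not tested. Selenop ranged from -2.98 to -2.66, Selenbp1 from -5.70 to -5.25 and Selenbp2 from -5.70 to -5.27 over all alternatives.

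No pairing by replicate number was seen. Correlations of the deviations of same-numbered samples were 0.027, -0.12 and 0.039, and not every sample correlated best with its own number. With 3 samples per group, these values cannot exclude that same-numbered samples were handled together. The fit with the replicate block called 11499 genes, gave 9 calls among the other selenoproteins and 8 among the genes that make and insert selenocysteine, and gave Selenop -2.94.

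Without a filter on low counts 2 of the partners of the endoplasmic reticulum selenoproteins were called higher in place of 5, and 5 of the absorptive colonocyte genes in place of 3. Precision after Folfiri is limited for Selenbp1 and Selenbp2 by 44 to 194 counts per sample. One organoid line and 1 time point were measured.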
